A study of Homo sapiens with 14 samples.

Results

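The epidermal growth factor receptor (EGFR) family was examined through 9 genes: the receptors EGFR, ERBB2 and ERBB3 and the ligands EREG, AREG, TGFA, HBEGF, BTC and NRG1. They were given by name, with earlier results of these data known, and all 9 were found by symbol among the 26732 genes counted in both lines. Transcripts were counted by RNA sequencing in A549 and H1792, established human lung adenocarcinoma lines, in 4 groups: A549 with DMSO (4 libraries), A549 with AMG900 (4 libraries), H1792 with DMSO (3 libraries) and H1792 with AMG900 (3 libraries). AMG900, a pan-aurora kinase inhibitor, was given at 0.1 µM for 48 h, and DMSO is its solvent. The culture media of the lines differed (DMEM for A549, an RPMI medium for H1792), so line and medium cannot be told apart. Each comparison within a line rests on that line alone. The study asked what aurora kinase inhibition changes in invasive lung adenocarcinoma cells.

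EGFR family receptors span the cell membrane, pair when a ligand binds, and phosphorylate each other through their kinase domains. EGFR binds EREG, AREG, TGFA, HBEGF and BTC, whereas NRG1 binds ERBB3 and ERBB4, ERBB2 has no known ligand and serves as a partner, and ERBB3 has an impaired kinase. The ligands are made as membrane-bound precursors that ADAM proteases cut free, and signals pass through RAS and ERK and through PI3K and AKT, pathways well known for their part in lung adenocarcinoma.

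Total counts ranged from 4254644 to 18962883 in A549 and from 42760874 to 79902934 in H1792, so low genes are measured more precisely in H1792. The smallest library, A549 DMSO replicate 1, also stood apart from the other DMSO libraries on the second principal component of A549 (65.9 against -31.8 to -26.4). Of the epithelial markers, KRT8 averaged 3050 CPM (counts scaled to a library of 1e+06, with the TMM factors of edgeR over all 14 libraries) in A549 and 467 in H1792 with DMSO. CDH1 averaged 21.9 and 0.697 CPM, whereas EPCAM averaged 0.287 and 3.48 CPM. KRT7 averaged 3700 and 1000 CPM, KRT18 1550 and 268 CPM and KRT19 25 and 7.11 CPM in the same order. KRT7, KRT8 and KRT18 were thus the highest epithelial markers in both lines, and CDH1 was also present in A549. The 6 fibroblast markers summed to 5.76 to 9.09 CPM in A549 DMSO libraries and 222 to 240 in H1792, where COL3A1 averaged 170 CPM. THY1 went the other way, with 6.36 CPM in A549 and 0.0104 CPM in H1792 with DMSO. With AMG900 the epithelial sum went from 7540 to 9790 CPM up to 10700 to 12600 in A549, and the fibroblast sum of H1792 down to 121 to 130. The fibroblast sum of A549 went up to 10.9 to 13.0 CPM. In H1792, PDGFRB averaged 11.1 CPM with DMSO and 13.5 CPM with AMG900, against the fall of the sum. The 5 leukocyte markers summed to 1.55 to 12.1 CPM across all libraries with CD3E at 0 in 3 of the 4 groups, and the 5 endothelial markers to 0.531 to 17.0 CPM with TEK at 0 in H1792. CD14 averaged 4.08 CPM in A549 with DMSO and 10.3 CPM with AMG900. In H1792, PECAM1 averaged 4.56 and 7.7 CPM and CDH5 0.0817 and 0.4 CPM in that order. The value of 17.0 holds 10.8 CPM of VWF in H1792 DMSO replicate 2. The part of these shifts in the results on the EGFR family was not tested.

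The genes lie on 7 chromosomes of GRCh37, the build that the submitters' processing notes name. EGFR spans 55086710 to 55279321 on chromosome 7, ERBB2 spans 37844167 to 37886679 on chromosome 17, and ERBB3 spans 56470583 to 56497289 on chromosome 12. EREG (75230862 to 75254466), AREG (75310853 to 75320722) and BTC (75669969 to 75719733) are neighbours within 489 kb of chromosome 4. TGFA lies at 70674416 to 70781325 on chromosome 2, HBEGF at 139712428 to 139726188 on chromosome 5, and NRG1 at 31496738 to 32713184 on chromosome 8. The annotation puts EGFR-AS1 on the opposite strand over 186 bases of EGFR exon, and MIEN1 and PGAP3 over 571 and 144 bases of ERBB2 exon. Because the strand setting of the counting is not given in the sources used here, reads in those stretches cannot be told apart.

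AREG needs a caution that bears on every AREG value below. All 822 bases of its coding sequence have a further copy on chromosome 4 of GRCh37 (75480839 to 75490391) at 98.39% identity or more, and none of the other 8 genes has such a copy. Reads from stretches where both places have the same letters cannot be told apart, and the count tables hold an AREG entry only. One stretch of AREG coding exon is shown because chr4:75320476-75320632 and chr4:75490235-75490391 (GRCh37, plus strand) read the same over 157 bases.

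AREG and its copy: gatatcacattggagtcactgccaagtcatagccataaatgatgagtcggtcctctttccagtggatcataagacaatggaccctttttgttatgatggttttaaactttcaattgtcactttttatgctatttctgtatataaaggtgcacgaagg

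Promoters of 3 members are shown because EGFR and EREG were the members that fell in A549 and HBEGF was the one that differed most between the lines. RefSeq promoters on GRCh38.p14 were at hand for 7 of the 9 genes (not for ERBB3 and NRG1), and the 250 bases before the transcription start are given 5′ to 3′ on the strand of the gene. Capitals mark letters that match 1 of 7 motifs on either strand. Searched were TGANTCA for the factor AP-1, TGACGTCA for the cAMP response element, GGGCGG for the GC box, TATAAA for the TATA element, the CCAAT box by its own letters, TTTGAA for the cell cycle element CHR and GGAATG for the factor TEAD. The windows are chr7:55018767-55019016 (plus strand) for EGFR (the upstream one of its 2 entries), chr4:74364895-74365144 (plus strand) for EREG and chr5:140346604-140346853 (minus strand) for HBEGF.
EGFR: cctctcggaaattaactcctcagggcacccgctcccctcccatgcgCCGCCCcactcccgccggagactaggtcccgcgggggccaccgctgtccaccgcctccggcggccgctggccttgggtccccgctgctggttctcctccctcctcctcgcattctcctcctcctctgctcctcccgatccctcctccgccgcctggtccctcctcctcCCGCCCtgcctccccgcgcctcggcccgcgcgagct
EREG: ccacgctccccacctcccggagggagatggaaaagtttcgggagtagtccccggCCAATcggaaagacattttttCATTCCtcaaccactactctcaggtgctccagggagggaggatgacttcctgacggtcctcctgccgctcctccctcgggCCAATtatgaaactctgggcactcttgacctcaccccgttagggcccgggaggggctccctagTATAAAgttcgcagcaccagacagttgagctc
HBEGF: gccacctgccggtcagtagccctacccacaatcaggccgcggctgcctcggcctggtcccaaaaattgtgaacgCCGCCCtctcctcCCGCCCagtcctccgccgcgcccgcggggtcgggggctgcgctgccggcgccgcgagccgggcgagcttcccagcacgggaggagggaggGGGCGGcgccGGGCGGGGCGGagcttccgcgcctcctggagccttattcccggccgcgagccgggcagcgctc

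The EREG window held a TATA element beginning 32 bases before the start, 2 CCAAT boxes and 1 TEAD match. Over 35116 promoter windows of this length, 10.7% held the TATA letters, 32.0% the CCAAT box and 11.9% the TEAD letters. The EGFR and HBEGF windows shown held GC boxes and no match to the other motifs, with 2 in EGFR and 5 in HBEGF, of which a pair overlaps in HBEGF. The other EGFR entry, not shown, held no GC box but 2 AP-1, 2 TATA, 1 CHR and 1 TEAD match. Over all windows, 6.57% held the AP-1 letters and 13.3% the CHR letters. GC box letters were present in 42.6% of all windows. GC made up 73.6% of the EGFR window, 58.0% of the EREG window and 76.4% of the HBEGF window. These matches describe letters and not bound sites.

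**Figure D1:**
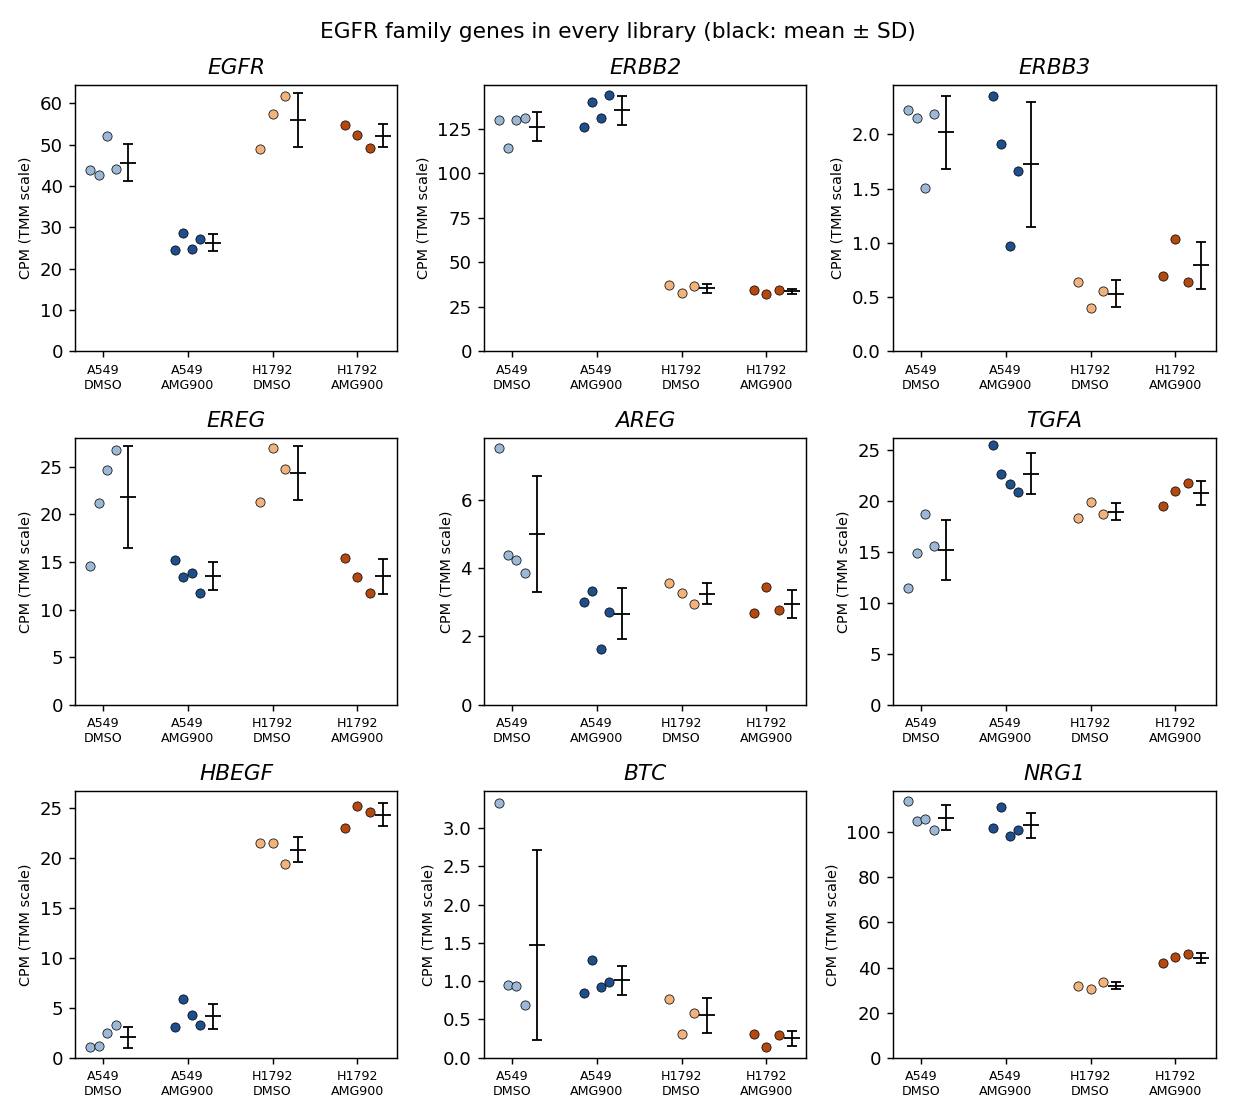
CPM on the TMM scale (y axis, from 0, its own range in each panel) of the 9 family genes in each of the 14 libraries (points), grouped by line and treatment, with the mean ± SD beside them. EGFR sits between 42.6 and 52.2 CPM in A549 with DMSO and between 24.6 and 28.7 with AMG900, whereas its H1792 groups overlap.

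With AMG900, EGFR and EREG fell in A549, whereas in H1792 EREG fell and NRG1 rose. Neither fall of EREG passed the threshold once GC content was corrected for. A gene was called where the quasi-likelihood test of edgeR, run over all genes of a line, gave an FDR (Benjamini-Hochberg adjusted p) under 0.01. In A549 this held for 2 of the 9 family genes, beside 35.0% of the 13174 genes tested (17.2% higher and 17.8% lower). In H1792 it held for 2 of 9, beside 35.1% of 15017 genes (16.2% higher and 18.8% lower). All 9 passed the filter on low counts in both lines. The median log2 fold change of the 9 was -0.31 in A549 and -0.08 in H1792, against -0.01 and 0.01 over all genes tested. Without A549 DMSO replicate 1, 3 members were called in A549, the further one being TGFA, beside 43.5% of all genes. Without H1792 DMSO replicate 1, 3 were called in H1792, the further one being EGFR, beside 44.2% of all genes.

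EGFR, the receptor that gives the family its name, was lower with AMG900 in A549. Its level in the 4 DMSO libraries was 43.9, 42.6, 52.2 and 44.0 CPM, and in the 4 AMG900 libraries 24.6, 28.7, 24.7 and 27.2 CPM. Every AMG900 library lay below every DMSO library. The fall was 1.84-fold, a log2 fold change of -0.88 ± 0.10 (SE) with an edgeR adjusted p of 6.55e-06, and it kept its call under all 18 alternatives run, from -0.95 to -0.81. In RNA from a whole culture, fewer cells that make a transcript and less of it per cell cannot be told apart.

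In H1792, EGFR measured 49.0, 57.3 and 61.8 CPM with DMSO and 54.8, 52.4 and 49.3 CPM with AMG900, so the groups overlapped. The log2 fold change was -0.10 (95% interval -0.29 to 0.09, edgeR adjusted p = 0.334). It became -0.22 and passed (edgeR adjusted p = 0.00526) without DMSO replicate 1, the library with the lowest EGFR of its group, and over all 16 alternatives the adjusted p ran from that value to 0.794. Leaving out DMSO replicate 1 also raised the share of all genes called in H1792 from 35.1% to 44.2%. On the second principal component of H1792 that library lay at 27.8, and the other DMSO libraries at -24.5 and -1.25.

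The EGFR response was tested for a difference between the lines in one fit over all 14 libraries. The log2 fold change was 0.70 ± 0.14 (SE) higher in H1792 than in A549 (95% interval 0.41 to 0.98, edgeR adjusted p = 0.00093), where the median of this difference over all genes was -0.10. EGFR and NRG1 were the 2 of 9 members whose response differed, beside 14.5% of the 14769 genes tested (5.37% higher and 9.17% lower in H1792).

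ERBB2, the partner receptor with no known ligand, was high in A549 and showed no called change with AMG900. It measured 130, 114, 130 and 131 CPM with DMSO and 126, 140, 131 and 144 CPM with AMG900 in A549. In H1792 it measured 37.2, 32.7 and 36.8 CPM with DMSO and 34.5, 32.2 and 34.5 CPM with AMG900. The groups overlapped in each line. The log2 fold changes, each scaled within its line, were 0.02 (95% interval -0.14 to 0.17, edgeR adjusted p = 0.846) in A549 and -0.08 (-0.24 to 0.08, edgeR adjusted p = 0.375) in H1792. ERBB2 transcripts are GC-rich (57.5%), and once GC content was corrected for, the values of -0.28 and -0.34 both passed the threshold (adjusted p = 0.0017 and 0.000825 by edgeR, within ranges of 0.0017 to 0.984 and 0.000825 to 0.685 over the alternatives). The difference between the responses was -0.18 (95% interval -0.40 to 0.05, edgeR adjusted p = 0.253).

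ERBB3, the kinase-impaired receptor for NRG1, was low throughout. It had 10 to 38 counts per A549 library and 19 to 53 per H1792 library, or 2.02 ± 0.34 CPM (SD, n = 4) in A549 with DMSO and 0.534 ± 0.124 CPM (SD, n = 3) in H1792 with DMSO. The intervals of its log2 fold change with AMG900, -1.03 to 0.40 in A549 and -0.16 to 1.26 in H1792, rest on these few counts.

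EREG encodes epiregulin, a ligand of EGFR, and was lower with AMG900 in both lines. In A549 it measured 14.6, 21.2, 24.7 and 26.8 CPM with DMSO and 15.2, 13.4, 13.8 and 11.7 CPM with AMG900. In H1792 it measured 21.3, 27.0 and 24.8 CPM with DMSO and 15.4, 13.4 and 11.7 CPM with AMG900. The H1792 groups did not overlap, whereas in A549 the DMSO replicate that stands apart, replicate 1, lay within the AMG900 range.

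The fall of EREG was 1.75-fold in A549 (log2 fold change -0.80 ± 0.16, edgeR adjusted p = 0.000866) and 1.80-fold in H1792 (log2 fold change -0.85 ± 0.12, edgeR adjusted p = 0.000211). Tested between the lines, the 2 responses differed by -0.11 (95% interval -0.57 to 0.35, edgeR adjusted p = 0.764). EREG has the lowest transcript GC content of the 9 genes, 36.1%, against a median of 48.6% over the A549 genes with a value. Across genes, the log2 fold change with AMG900 went up with GC content (Spearman rho 0.488 over 12789 genes in A549 and 0.470 over 14375 genes in H1792, a description in which genes are not independent). After a correction for GC content the EREG values were -0.32 in A549 (edgeR adjusted p = 0.123) and -0.27 in H1792 (edgeR adjusted p = 0.042), so neither call was kept. Over all alternatives the EREG adjusted p ran from 7.27e-07 to 0.212 in A549 and from 5.72e-11 to 0.0626 in H1792.

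**Figure D2:**
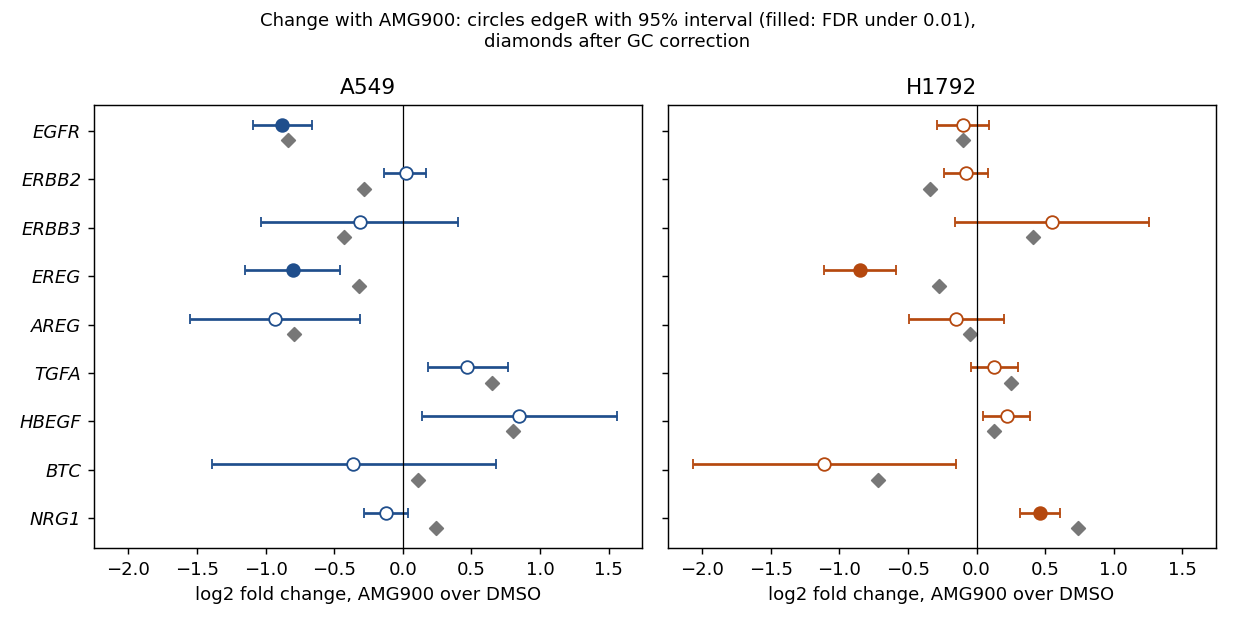
Log2 fold change with AMG900 over DMSO (x axis) of each family gene (y axis) in A549 (left) and H1792 (right). Circles with 95% intervals come from edgeR and are filled at an FDR under 0.01, and diamonds are the values after the correction for GC content. EGFR in A549 stays near -0.88 and NRG1 in H1792 goes from 0.46 to 0.74, whereas EREG moves toward 0 in both lines.

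AREG, or amphiregulin, measured 7.53, 4.39, 4.25 and 3.86 CPM in the DMSO libraries of A549 and 3.01, 3.33, 1.63 and 2.72 CPM in its AMG900 libraries. The groups did not overlap, as was so for 3 of the 9 members in A549 (EGFR, AREG and TGFA), beside 44.0% of all genes. Its log2 fold change of -0.93 ± 0.29 did not pass (edgeR adjusted p = 0.0152, from 0.006 with DESeq2 to 0.0504 over the alternatives) and rests on 30 to 67 counts per library. In H1792, AREG averaged 3.26 CPM with DMSO and 2.97 CPM with AMG900, with a log2 fold change of -0.15 (95% interval -0.49 to 0.20). The response was 0.70 higher in H1792 without passing (95% interval -0.02 to 1.42, edgeR adjusted p = 0.148). How reads that fit both places were counted is not given in the sources used here. All of these AREG counts can hold reads of the second copy or lack reads of AREG itself.

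TGFA, transforming growth factor alpha, measured 11.5, 14.9, 18.7 and 15.6 CPM with DMSO in A549 and 25.5, 22.7, 21.7 and 20.9 CPM with AMG900. The AMG900 libraries lay above the DMSO libraries, but the log2 fold change of 0.47 (95% interval 0.18 to 0.77) narrowly missed the threshold (edgeR adjusted p = 0.0108). It passed in 10 of the 18 alternatives, among them DESeq2 (0.48, adjusted p = 0.00278) and the GC-corrected fit (0.65, adjusted p = 0.000734 by edgeR), and the adjusted p ran from 0.000475 to 0.0388. These 10 include the looser FDR threshold of 0.05, which the main fit meets, and 2 of the 8 fits that leave out 1 library. In H1792 the groups overlapped, with 18.3, 19.9 and 18.7 CPM under DMSO and 19.5, 21.0 and 21.8 CPM under AMG900. That log2 fold change was 0.13 (95% interval -0.04 to 0.30). It passed in 2 of the 16 alternatives, over which it ran from 0.06 to 0.28 (adjusted p by edgeR or DESeq2 from 0.00415 to 0.563). The difference between the lines did not pass (-0.41, edgeR adjusted p = 0.0841).

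HBEGF, the heparin-binding ligand, was scarce in A549 and well measured in H1792. In A549 it rested on 5 to 57 counts per DMSO library, or 1.11, 1.20, 2.52 and 3.28 CPM, and on 3.11, 5.89, 4.23 and 3.32 CPM with AMG900. In H1792 it measured 21.5, 21.5 and 19.4 CPM with DMSO and 23.0, 25.2 and 24.6 CPM with AMG900. The groups overlapped in A549 and did not in H1792, where the same held for 3 of the 9 members (HBEGF, EREG and NRG1), beside 59.6% of all genes. Neither log2 fold change passed: 0.85 (95% interval 0.14 to 1.56, edgeR adjusted p = 0.046) in A549 and 0.22 (0.05 to 0.39, edgeR adjusted p = 0.0346) in H1792. Their difference of -0.65 did not pass either (95% interval -1.32 to 0.01, edgeR adjusted p = 0.146).

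BTC, or betacellulin, had 9 to 18 counts per A549 library and 7 to 49 per H1792 library. A549 DMSO replicate 1, with 15 counts in the smallest library, gave 3.32 CPM where the other DMSO libraries gave 0.691 to 0.946 CPM. The log2 fold changes of -0.36 (95% interval -1.39 to 0.68) in A549 and -1.11 (-2.07 to -0.15, edgeR adjusted p = 0.0532) in H1792 did not pass, and the A549 value became 0.18 without that library.

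NRG1, neuregulin 1, rose with AMG900 in H1792. It measured 31.8, 30.4 and 33.6 CPM with DMSO and 41.9, 44.5 and 46.1 CPM with AMG900, with every AMG900 library above every DMSO library. The rise was 1.38-fold, a log2 fold change of 0.46 ± 0.07 (SE) with an edgeR adjusted p of 0.000275, and it kept its call under all 16 alternatives, from 0.40 to 0.75. In A549, NRG1 stood at 114, 105, 106 and 101 CPM with DMSO and 102, 111, 98.4 and 101 CPM with AMG900, with overlapping groups.

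The A549 log2 fold change of NRG1 was -0.12 (95% interval -0.28 to 0.04, edgeR adjusted p = 0.197), and its sign turned to 0.24 (edgeR adjusted p = 0.0109) after the GC correction. The response of NRG1 was 0.51 ± 0.10 (SE) higher in H1792 than in A549 on the log2 scale (edgeR adjusted p = 0.00102), with 0.52 after the GC correction. NRG1 exons overlap 2 further annotated genes on the same strand by 189 and 1835 bases of 21372, neither of them in the count tables.

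With DMSO alone, the lines differed most in HBEGF, ERBB3, ERBB2 and NRG1. These 4 of 9 genes passed, beside 66.1% of all 14769 genes (34.2% higher and 31.9% lower in H1792). HBEGF was 9.16-fold higher in H1792 (log2 3.20 ± 0.23, edgeR adjusted p = 2.07e-10). ERBB2 was 3.55-fold lower in H1792 (log2 -1.83 ± 0.08, edgeR adjusted p = 9.95e-14) and ERBB3, from few counts, 3.69-fold lower (log2 -1.89 ± 0.35, edgeR adjusted p = 7.2e-05). NRG1 was 3.32-fold lower (log2 -1.73 ± 0.08, edgeR adjusted p = 8.65e-14). Libraries of the 2 lines did not overlap for these 4 genes or for AREG, beside 68.3% of all genes.

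The other 5 members did not pass between the lines. EGFR was 0.29 higher in H1792 on the log2 scale (95% interval 0.09 to 0.49, edgeR adjusted p = 0.0105), and it passed in 6 of the 8 alternatives that keep all libraries and in 2 of the 14 that leave out 1, H1792 DMSO replicate 1 (0.44, edgeR adjusted p = 0.000518) or A549 DMSO replicate 3 (0.37, edgeR adjusted p = 0.00294). Over these the value ran from 0.19 with total counts to 0.59 with GC and length correction, and the adjusted p from 9.5e-06 to 0.0965. EREG differed by 0.11 (95% interval -0.21 to 0.43), TGFA by 0.29 (0.03 to 0.55), AREG by -0.53 (-1.04 to -0.03) and BTC by -1.13 (-2.16 to -0.10). Line, medium and sequencing depth differ together here and cannot be told apart.

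**Figure D3:**
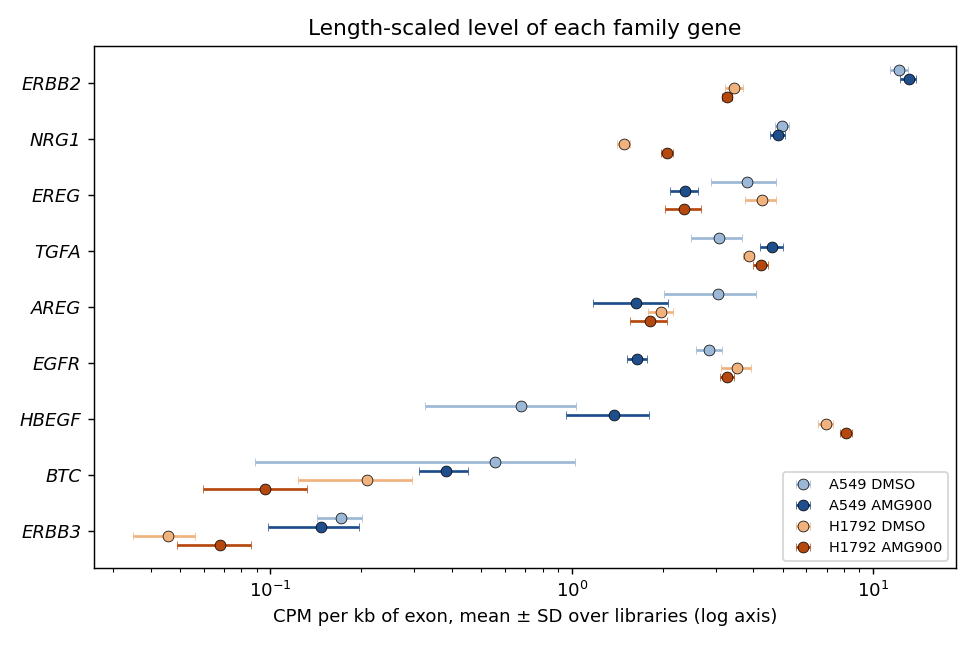
CPM per kb of exon (x axis, log scale), mean ± SD over the libraries of each group (points), for the 9 family genes ordered by their A549 DMSO level. ERBB2 leads in A549 at 12.2 and HBEGF leads in H1792 at 6.96, while ERBB3 is lowest in both.

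Levels of different genes were set side by side only per length, as CPM per kb of exon in the DMSO libraries. In A549, ERBB2 was highest (12.2 ± 0.822, SD, n = 4), followed by NRG1 (4.98 ± 0.267), EREG (3.82), TGFA (3.08), AREG (3.05) and EGFR (2.86 ± 0.278). From NRG1 to EGFR, the mean ± SD of each gene overlapped that of the next, so neighbours in this order are not resolved, whereas NRG1 lay apart from TGFA, AREG and EGFR. HBEGF (0.679), BTC (0.556) and ERBB3 (0.172) were lowest, and likewise not resolved from each other as neighbours.

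In H1792 the order differed. HBEGF was highest (6.96 ± 0.41 CPM per kb, SD, n = 3), followed by EREG (4.26), TGFA (3.86), EGFR (3.52) and ERBB2 (3.45), whose mean ± SD overlapped from each to the next. AREG (1.98), NRG1 (1.49), BTC (0.209) and ERBB3 (0.0456) came next and each lay apart from its neighbour. By the length of the longest transcript in place of all exons, ERBB2 moved from the fifth to the second place in H1792 (7.21 CPM per kb), while HBEGF stayed first (8.83) and ERBB2 stayed first in A549 (25.6).

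The rest of the family ranged from no counts to a few CPM. ERBB4, the other NRG1 receptor, EPGN and NRG3 had 0 counts in all 8 A549 libraries, which allows up to 0.705 CPM in the smallest library (3 counts, counting error only). NRG3 was also at 0 in the 6 H1792 libraries, which allows up to 0.0702 CPM. ERBB4 had 1 to 25 counts and EPGN 9 to 46 counts per H1792 library. EGF, the founding ligand, averaged 0.526 CPM in A549 and 2.95 CPM in H1792 with DMSO, and was higher in H1792 (log2 2.53, edgeR adjusted p = 6.44e-07). NRG2 averaged 3.67 CPM in A549 and 1.02 CPM in H1792 with DMSO and was lower in H1792 (log2 -1.87, edgeR adjusted p = 5.93e-07), and NRG4 averaged 0.519 and 0.655 CPM with DMSO. With AMG900 none of the 1 tested in A549 and the 4 tested in H1792 passed the edgeR threshold, with 1 and 1 at an unadjusted p under 0.05, NRG2 in each line (0.52 and 0.64 on the log2 scale), and none passed with DESeq2 either (NRG2 adjusted p = 0.0381 and 0.053).

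Genes for ligand shedding, which include proteases, their helpers and the inhibitor TIMP3, moved in both directions. In A549, 2 of 8 tested rose and 2 fell (median log2 fold change -0.10), and in H1792 3 of 9 rose and 3 fell (median 0.06), beside 17.2% higher and 17.8% lower over all genes in A549 and 16.2% and 18.8% in H1792. The 3 that rose in H1792 were RHBDF1, RHBDF2 and TIMP3, a metalloprotease inhibitor named after its values were seen (log2 0.46, edgeR adjusted p = 8.76e-05). ADAM9, a metalloprotease, fell 2.66-fold in A549, from 78.8 ± 5.16 to 31.2 ± 5.07 CPM, and 2.69-fold in H1792, from 28.2 ± 4.65 to 10.5 ± 0.791 CPM (edgeR adjusted p = 2.71e-07 and 1.06e-05). RHBDF2, an inactive rhomboid protein that helps the sheddase ADAM17 mature, rose 2.38-fold in A549 (edgeR adjusted p = 6.15e-09) and 1.31-fold in H1792 (edgeR adjusted p = 0.000428). Its relative RHBDF1 rose 1.93-fold and 1.45-fold (edgeR adjusted p = 1.97e-06 and 0.000138). ADAM17 itself did not rise. Its log2 fold change was -0.23 in A549 (edgeR adjusted p = 0.0584) and -0.43 in H1792, called lower (edgeR adjusted p = 0.00161). The protease ADAM10 was lower in both lines (-0.64 and -0.69, edgeR adjusted p = 0.000541 and 0.00179). ADAM17 and ADAM10 were named after their values were seen and were not followed through the alternatives. After the GC correction ADAM9 stayed called at -0.93 and -0.94 on the log2 scale. RHBDF2 and RHBDF1 then kept their calls in A549 (0.83 and 0.52) and lost them in H1792 (0.05 and 0.20, edgeR adjusted p = 0.396 and 0.0412).

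Of the genes that restrain or turn over the receptors, 4 of 13 tested fell in A549 (median log2 fold change -0.36) and 3 of 13 in H1792 (median -0.18). Over all genes, 35.0% and 35.1% were called in either direction, with 17.8% and 18.8% of all genes lower. LRIG3, a transmembrane protein of a family that regulates receptor levels, fell 2.60-fold in A549 (log2 -1.38, edgeR adjusted p = 0.000164), with -0.59 in H1792 that did not pass (edgeR adjusted p = 0.0157). SOCS5, a suppressor of cytokine signaling that also acts on EGFR, fell 1.79-fold in H1792 (log2 -0.84, edgeR adjusted p = 0.00937). That call was kept in 8 of 16 alternatives, with an adjusted p from 0.00251 to 0.222. These 8 include the looser FDR threshold, which the main fit meets. Of the 6 fits that leave out 1 library, 2 kept the call, with log2 fold changes from -0.97 to -0.64. The call was lost without any of 4 libraries: DMSO replicate 2 or AMG900 replicate 1, 2 or 3. Of the 10 alternatives that keep all libraries, 6 kept the call, and the fall shrank to as little as -0.32 there. ERRFI1, named after its values were seen, encodes a feedback inhibitor of EGFR and fell 2.19-fold in A549 and 1.57-fold in H1792 (edgeR adjusted p = 2.17e-06 and 0.000365), with -0.90 and -0.47 on the log2 scale and both calls kept after the GC correction.

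Genes that relay the signal also moved both ways. In A549, 6 of 16 tested rose and 3 fell (median log2 fold change -0.14), and in H1792 3 of 17 rose and 6 fell (median -0.22), beside 17.2% higher and 17.8% lower over all genes in A549 and 16.2% and 18.8% in H1792. SRC, a tyrosine kinase, rose from 317 ± 16.0 to 513 ± 19.7 CPM in A549 and from 177 ± 4.71 to 224 ± 3.11 CPM in H1792 (edgeR adjusted p = 1.33e-06 and 0.000279). PIK3CB, a catalytic subunit of PI3K, fell 2.42-fold and 2.72-fold (edgeR adjusted p = 0.00287 and 4.73e-05). The A549 call of PIK3CB was lost without AMG900 replicate 3 (edgeR adjusted p = 0.0134) or 4 (0.0127). GAB2, an adaptor, rose 1.46-fold in H1792 (edgeR adjusted p = 0.00234), a call lost without DMSO replicate 3 or AMG900 replicate 1 or 2, and measured 1.43-fold in A549 without passing (edgeR adjusted p = 0.0413). The GC correction took SRC from 0.62 to 0.26 in A549, still called, and from 0.34 to 0.04 in H1792 (edgeR adjusted p = 0.43), and it also ended the calls of PIK3CB in A549 (-0.90, edgeR adjusted p = 0.0211) and GAB2 in H1792 (0.34, edgeR adjusted p = 0.0329).

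Of 15 ERK-responsive genes, which RAS and ERK signaling is known to induce, 9 rose and 2 fell in A549 (median log2 fold change 0.40), and 5 rose and 4 fell in H1792 (median 0.20), beside the same 17.2% and 17.8% of all genes in A549 and 16.2% and 18.8% in H1792. FOSL1, a subunit of AP-1, rose from 399 ± 3.77 to 767 ± 32.7 CPM in H1792 and from 73.3 ± 4.49 to 102 ± 4.72 CPM in A549 (edgeR adjusted p = 1.19e-06 and 0.000473). SPRY1, a feedback inhibitor of RAS signaling, went opposite ways: it rose 3.75-fold in A549, where it had 5 to 58 counts per library, and fell 1.54-fold in H1792 (edgeR adjusted p = 0.00266 and 0.000156). SPRED1, a related inhibitor, fell 2.05-fold and 2.44-fold (edgeR adjusted p = 0.00667 and 1.06e-05). In A549, SPRY1 lost its call without DMSO replicate 3 or 4 or AMG900 replicate 3 (adjusted p up to 0.0143), and SPRED1 without DMSO replicate 3 or 4 or AMG900 replicate 1, 3 or 4, while the log2 fold changes stayed between 1.59 and 2.15 for SPRY1 and between -1.19 and -0.88 for SPRED1. After the GC correction FOSL1 measured 0.66 in H1792, still called, and 0.06 in A549 (edgeR adjusted p = 0.474), and SPRED1 measured -0.73, still called, and -0.54 (edgeR adjusted p = 0.136).

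**Figure D4:**
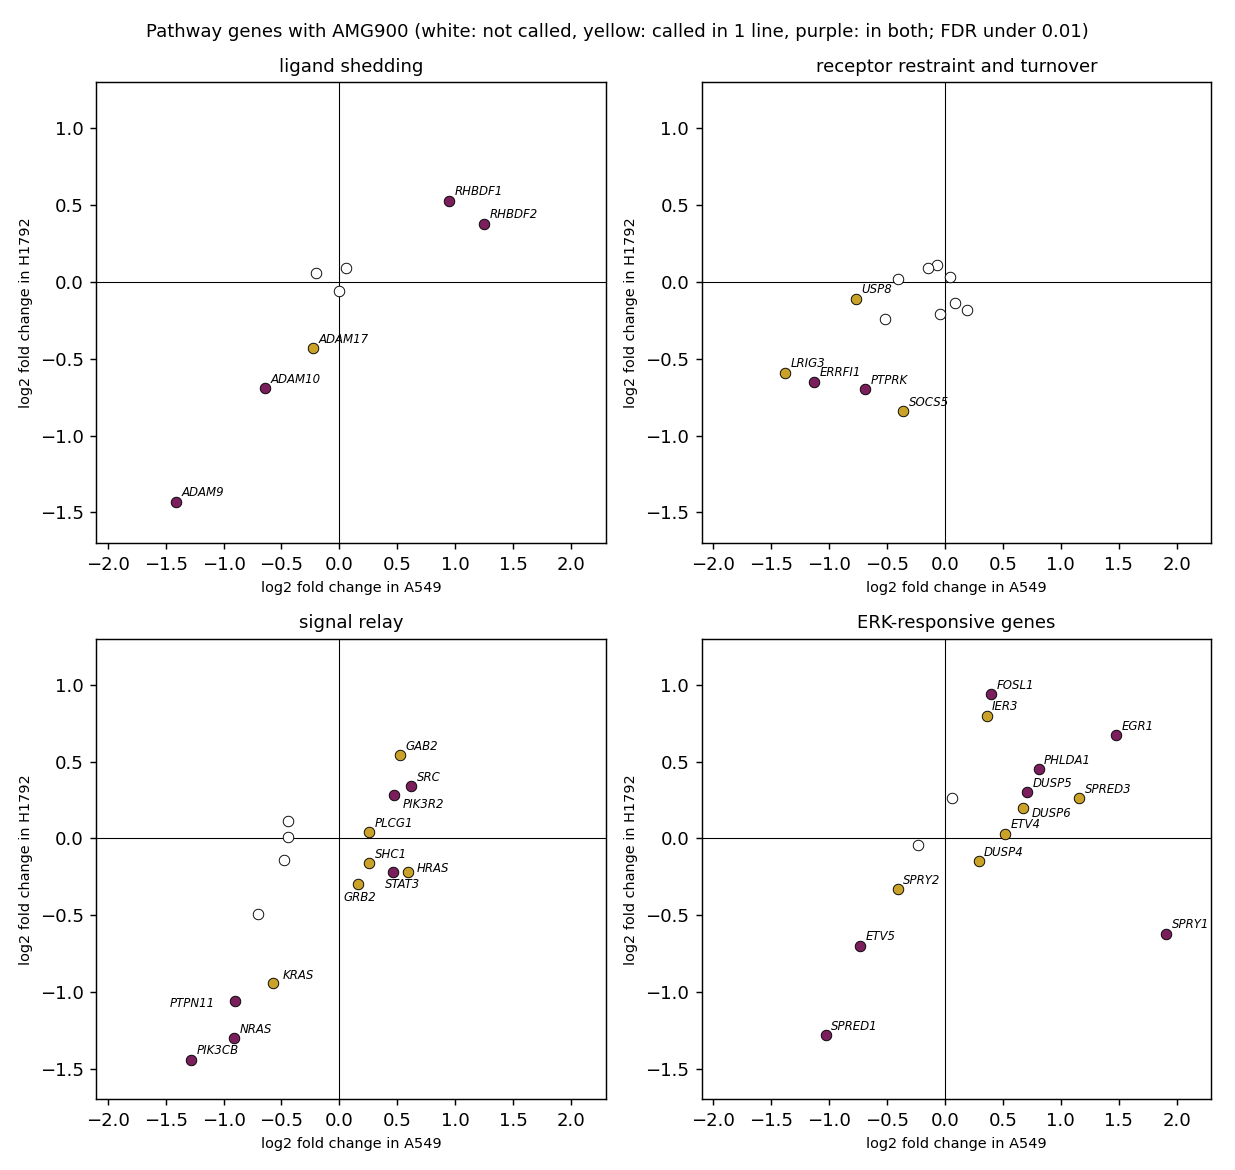
Log2 fold change with AMG900 in A549 (x axis) and in H1792 (y axis) of each gene tested in both lines, in 4 panels by list. Purple points were called in both lines, yellow in 1 and white in neither, at an edgeR FDR under 0.01. Shedding genes run from ADAM9 at -1.41 and -1.43 to RHBDF2 at 1.25 and 0.38, and SPRY1 stands alone at 1.91 and -0.62.

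For each member, the gene most like it in pattern was found by the Pearson correlation of log2 CPM over the 14 libraries, which fall into 4 groups, so that r mainly describes those groups. EGFR was most like DNMT1 (r = 0.981), HNRNPUL1 (0.980) and NCAPH (0.976). ERBB2 was most like SLC35F3 (0.997), NRG1 like ADGRG1 (0.994), HBEGF like ARHGAP22 (0.991) and ERBB3 like LTB4R (0.956). The other ligands had lower values, with BTC like RAI1 (0.947), EREG like QKI (0.945), AREG like PRPF39 (0.937) and TGFA like KCNE3 (0.936).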

How the data were processed

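RNA in 14 libraries was sequenced on a NextSeq 500. The authors deposited raw counts of reads per gene symbol, 1 table per line, made with STAR and HTSeq on hg19/GRCh37 per the labels. Versions, annotation and strand setting are not given in the sources used here. The treatment notes name 3 replicates, whereas A549 has 4 per arm, all used. From the H1792 table, 28 entries named by dates were dropped (0.101% to 0.117% of counts).

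Counts were filtered with filterByExpr, scaled by TMM and tested in R 4.3.3 with the edgeR 4.0.16 quasi-likelihood test, Benjamini-Hochberg adjustment over all genes and an FDR threshold of 0.01. Each line was fitted alone. The interaction and the DMSO comparison came from a fit of all 14 libraries. DESeq2 1.42.0, other scalings and filters, GC and length corrections (natural splines, 5 degrees of freedom), a replicate block and leaving out each library were alternatives. Nothing in the labels says whether replicates came from separate dishes or separate cultures, so p-values measure the spread between these libraries. Replicate pairs differed beyond sampling noise (chi-square per gene 3.24 to 45.2). The biological coefficient of variation was 12.8% in A549 and 9.6% in H1792. GRCh37 with GENCODE v44lift37 gave positions, lengths and GC content, and BLAST 2.17.0+ found copies (at least 98% identity over 50 bases). The fits were tested on simulated data.

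The 9 members and all lists were chosen with earlier results of these data known. From each list, the genes with the largest rise and fall past the threshold in each line were named, plus all other family genes. TIMP3, ERRFI1, ADAM10 and ADAM17 were named outside this rule.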

Additional observations from a re-analysis of the deposited data

Results flagged for a closer look

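Each member was looked at in the DMSO group and in the AMG900 group of A549, which gave 18 sets of 4 values. In 5 of the 18 sets, 1 library lay far from the other 3, and all 5 sets are of DMSO. Chance gives about 1 in 20 where sets are independent. The members share their libraries, so no excess over chance can be read from this. EGFR measured 52.2 CPM in replicate 3 against 42.6 to 44.0 CPM in the others. ERBB2 measured 114 CPM in replicate 2 against 130 to 131 CPM. ERBB3 measured 1.51 CPM in replicate 3 against 2.15 to 2.22 CPM. AREG measured 7.53 CPM in replicate 1 against 3.86 to 4.39 CPM, and BTC 3.32 CPM in the same library against 0.691 to 0.946 CPM. Groups of 3 were not examined in this way.

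The response to AMG900 differed between the lines for 7 named genes by the interaction test of edgeR, beside 14.5% of all 14769 genes tested. FOSL1, SPRY1, RHBDF2, RHBDF1 and SRC were named for their response in these same libraries, so no excess can be read from their number. In H1792 minus A549, on the log2 scale, the difference was 0.70 for EGFR, 0.51 for NRG1 and 0.47 for FOSL1 (edgeR adjusted p = 0.00093, 0.00102 and 0.000691). It was -2.69 for SPRY1, -0.94 for RHBDF2, -0.49 for RHBDF1 and -0.36 for SRC (edgeR adjusted p = 2.34e-05, 1.23e-06, 0.00745 and 0.00355). RHBDF1 kept that call in 4 of the 14 fits that each leave out 1 library, and SRC in 10. After the GC correction these were -0.27 and -0.17 (edgeR adjusted p = 0.0606 and 0.0785).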

How the results depend on the processing

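The A549 calls numbered 5 of 9 members at an FDR of 0.05, 4 with DESeq2 and 4 with no filter on low counts, against 2, beside 49.1%, 39.5% and 24.4% of all genes at those settings. Between the lines with DMSO they numbered 7 at an FDR of 0.05 and 7 with GC and length correction, against 4, beside 74.7% and 67.3% of all genes. Counts in H1792 and for the interaction moved by no more than 1.5 times under any alternative run. With a GC correction, ERBB2 in A549 became -0.28 (-0.22 with length, -0.28 with the block), BTC 0.11 (0.06, 0.15), NRG1 0.24 (0.23, 0.24) and SOCS5 0.12 (0.16, 0.13). In H1792 EGF became 0.09 (0.13, 0.09) and NRG4 0.42 (0.40, 0.42). The EREG difference in response became 0.05 (0.04, 0.01) and its DMSO difference -0.05 (-0.04). ERBB2 in A549 was -0.06 with total counts. Leaving out single libraries moved A549 BTC from -0.64 to 0.18, A549 ERBB2 from -0.03 to 0.04, H1792 NRG4 from -0.22 to 0.16, the EREG difference in response from -0.22 to 0.01 and its DMSO difference from 0 to 0.26. The cause was not tested.

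Replicate numbers did not pair the libraries: same-numbered libraries had correlations of their deviations from -0.0615 to 0.0417, and 1 of 7 correlated best with its own number. With the replicate block, 2 members were called in A549 and 2 in H1792, beside 29.7% and 31.9% of all genes at that setting. EGFR in A549 stayed called and NRG1 in H1792 too, whereas SPRED1 in A549 was -1.03 (edgeR adjusted p = 0.0196) and SOCS5 in H1792 -0.82 (edgeR adjusted p = 0.0124). The DMSO difference between lines could not be fitted with the block. Over all genes, the difference in response was called higher in H1792 for 793 genes and lower for 1355, against 1330 and 1124 with the GC correction and 1012 and 1033 with the size factors of DESeq2. HBEGF and BTC in A549 and BTC in H1792 have no value at a minimum of 10 counts in every library, which removed them, and the same holds for both in the fit of all libraries and for SPRY1, EPGN and EGF in some fits. Depth limits ERBB3, BTC, AREG and, in A549, HBEGF, with 5 to 83 counts per A549 library.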
